A study of Mus musculus with 9 samples.

Results

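The mitochondrial ribosomal protein genes were taken as all rows of the deposited table with a symbol of the form Mrpl or Mrps followed by a number and an FPKM (fragments per kilobase of gene and per M fragments of the library) above 0 in at least 3 of the 9 libraries. The rule found 77 of the 21989 genes in the table, 48 Mrpl and 29 Mrps genes, and left out none of the rows that match the symbol pattern. The 9 libraries were made from whole hearts, 3 in each of 3 groups, of C57BL/6J male mice that were 18 to 20 weeks old. LD hearts came from mice that had the TAC operation and were treated with Lingguizhugan decoction, a Chinese herbal preparation. TAC hearts came from mice with the same operation that were treated with distilled water, and sham hearts from sham-operated mice treated with distilled water. TAC is usually read as transverse aortic constriction, surgery that narrows the aorta and overloads the ventricle. No transgene or mutation is given for any group. A dose of the decoction is not given in the sources used here, nor is the time between operation and tissue collection. Decoction was given to the LD group alone, and there was no sham group with decoction.

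The mitochondrial ribosome is a separate ribosome inside the organelle that translates the mRNAs of the mitochondrial genome. These encode core subunits of the respiratory chain and of ATP synthase. Its rRNAs are encoded in the mitochondrial genome, whereas all of its proteins are encoded in the nucleus, translated in the cytosol and imported. The small subunit decodes the mRNA, and the large subunit forms the peptide bond and feeds the new chain to the inner membrane. Some of the proteins have bacterial homologues and others are found in mitochondrial ribosomes alone. In the heart, which depends on oxidative phosphorylation, loss of single human members such as MRPL3 and MRPL44 has been linked to cardiomyopathy.

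By structure, 50 members belong to the large subunit and 26 to the small subunit. Their names do not always say which, since Mrps18a and Mrps30 are built into the large subunit. Mrps36 has since been assigned to the oxoglutarate dehydrogenase complex and is counted in neither subunit. By origin, 46 members were counted as having a bacterial homologue and 30 as specific to mitochondria. Mrps18a and Mrps18b were counted among the 30, although they belong to the family of bacterial S18. The gene for Mrpl58, a peptidyl-tRNA hydrolase built into the large subunit, is listed under its older name Ict1 and was therefore not a member. Members lay on 17 chromosomes of GRCm38, and all 77 symbols were found in GENCODE M21.

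Library totals recovered from the FPKM steps were 7.43, 18.1 and 16.1 M fragments in LD hearts, 8.40, 14.9 and 8.96 M in TAC hearts and 18.1, 14.5 and 14.9 M in sham hearts. For a length of 1 kilobase, 3 fragments correspond to 0.166 FPKM in the deepest and 0.404 FPKM in the shallowest library; these floors cover counting error only. Libraries stood apart in 2 ways that the labels do not name. LD replicate 3 and TAC replicate 3 lay at the ends of the first principal component, at 48.3 and -51.0 against -10.4 to 17.1 for the other libraries, and this component held 29.4% of the variance. In TAC replicates 2 and 3 and sham replicates 1 and 3, 86.7% to 88.5% of genes with at least 20 and under 200 fragments had an even number of fragments, against 48.1% to 50.5% in the other 5 libraries, which included all 3 LD libraries. The source of these even numbers was not tested. Totals and floors count each recovered fragment separately. In libraries with mostly even numbers, which include the deepest, sham replicate 1, the floors may therefore be too low. Heart tissue matched its label: all 12 cardiomyocyte markers were above 0 in every library, and together they made up 12.2% to 17.0% of the FPKM sum in LD hearts, 11.0% to 12.0% in TAC hearts and 12.3% to 13.1% in sham hearts.

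Nearly all members were expressed, over a range of almost 3 orders of magnitude. The mean FPKM over the 9 hearts had a median of 37.8 across the 77 members and ran between 0.43 and 323.4. Of the members, 19 had a mean FPKM of at least 100, 46 of 10 to 100, 9 of 1 to 10, and 3 of less than 1. As FPKM is scaled by gene length, these are levels per length. Lengths recovered from the table differed from the annotated exon length by a median of -0.52 on the log2 scale and by -3.98 to 1.66 over the members, so levels compared between genes carry that uncertainty. Summed over the 77 members, FPKM was 4995, 5630 and 6356 in LD hearts, 5225, 5891 and 4538 in TAC hearts and 5723, 5304 and 4956 in sham hearts. These sums were 0.944% to 1.064% of the FPKM sum in LD hearts, 0.955% to 1.036% in TAC hearts and 0.936% to 1.082% in sham hearts, so the 3 groups overlapped.

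**Figure D1:**
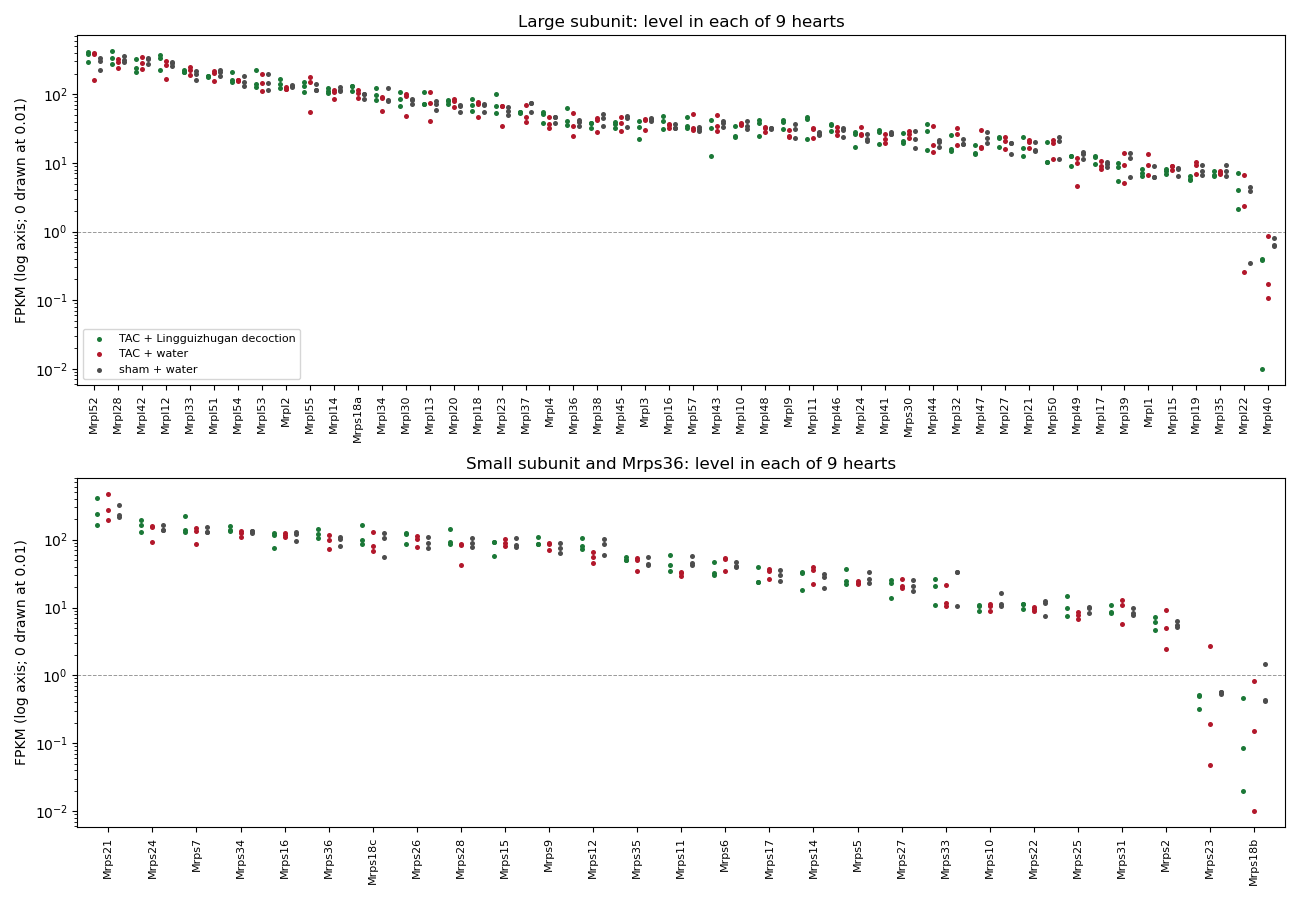
FPKM of each member in each heart on a log axis, large subunit above and small subunit with Mrps36 below, ordered by the mean over 9 hearts. Each point is 1 heart of the LD, TAC or sham group, a value of 0 is drawn at 0.01, and the dashed line marks an FPKM of 1. In most members the points of the 3 groups overlap, and Mrpl22, Mrpl40, Mrps23 and Mrps18b sit lowest.

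At the top of the order stood Mrpl52, a mitochondria-specific large-subunit protein, with 384.9, 299.1 and 412.1 FPKM in LD hearts, 390.8, 396.3 and 160.6 FPKM in TAC hearts and 338.4, 226.5 and 302.4 FPKM in sham hearts. TAC replicate 3 was the lowest of the 9. Mrpl28 followed with a mean of 317.7 FPKM, then Mrpl42 with 286.9 and Mrps21 with 281.3. Neighbours in this order differed by less than the spread between hearts: Mrps21 alone ran between 165.1 and 476.8 FPKM. Mrpl12, the protein of the mobile stalk that recruits translation factors, was next with a mean of 277.5 FPKM. It had 225.8, 333.2 and 367.9 FPKM in LD hearts, 269.2, 300.9 and 167.4 FPKM in TAC hearts and 285.2, 293.0 and 254.7 FPKM in sham hearts, again with TAC replicate 3 lowest.

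At the bottom were 3 members that did not reach an FPKM of 1 in at least 3 hearts and were therefore not tested. For all 3 the length recovered from the table was above the annotated exon length, with 4916 against 1560 bases for Mrps23, the largest excess of the members as a ratio, 3190 against 2089 for Mrps18b and 2110 against 1761 for Mrpl40. The gene models behind these values may thus differ from the annotation, and whether the low values reflect the genes' expression was not tested. Such an excess was not particular to the low members. Mrpl41 had 2423 against 888 bases and Mrpl14 1550 against 949, and they averaged 25.1 and 111.6 FPKM. Mrpl40, a large-subunit protein, had 0, 15 and 13 fragments in LD hearts, 3, 27 and 2 in TAC hearts and 31, 19 and 20 in sham hearts. The count of 0 in LD replicate 1 allows an FPKM of up to 0.191. Mrps23, a small-subunit protein, had 0.52, 0.32 and 0.49 FPKM in LD hearts, 0.05, 0.19 and 2.75 FPKM in TAC hearts and 0.54, 0.57 and 0.56 FPKM in sham hearts. Its TAC hearts held both the lowest and the highest value, so the groups overlapped. Mrps18b is 1 of 3 mammalian paralogues of the bacterial S18 family, with Mrps18a in the large and Mrps18c in the small subunit. It averaged 0.43 FPKM and had no fragment in TAC replicate 2. This allows up to 0.063 FPKM there with each recovered fragment counted separately. The limit may be higher, as this library had mostly even numbers. Mrps18a averaged 107.7 FPKM and Mrps18c 100.7 FPKM in the same hearts, so 2 of the 3 paralogues carried nearly all of the family's FPKM as listed in the table. Part of the annotated exons of Mrps18b, 30.5%, overlap another gene, and without a strand step such reads cannot be told apart.

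The spread between hearts of a group was smaller for the members than for genes at large, as medians over genes. The SD of log2(FPKM + 1) within groups had a median of 0.287 over the 74 tested members, against 0.371 over the 11380 genes tested and 0.341 over the 4541 genes at levels between the 10th and the 90th percentile of the members. The nuclear genes of respiratory complex I had 0.275 and the cytosolic ribosomal proteins 0.352. Levels were not fully matched: the mean FPKM had a median of 39.1 over the 74 members and of 21.2 over the 4541 genes. The part of level in the smaller spread was not tested. Mrps34, a mitochondria-specific small-subunit protein, was the steadiest with an SD of 0.111. It had 156.2, 134.1 and 137.2 FPKM in LD hearts, 109.5, 132.3 and 123.9 FPKM in TAC hearts and 133.0, 123.7 and 133.7 FPKM in sham hearts. All 3 LD hearts lay above every TAC and every sham heart, by a narrow margin. As 77.8% of its annotated exon length overlaps Mapk8ip3 or Nme3, its reads may be shared with them. Least steady were Mrpl22 and Mrps33, with SDs of 1.07 and 0.70. Mrpl22, a large-subunit protein that in bacteria lines the exit tunnel, had 36, 165 and 265 fragments in LD hearts, 5, 229 and 48 in TAC hearts and 187, 128 and 12 in sham hearts. Its lowest counts came from TAC replicate 1 and sham replicate 3. Mrps33 was low in the same libraries and in LD replicate 3 and TAC replicate 3, with 20.9, 26.4 and 10.9 FPKM in LD hearts, 10.4, 21.3 and 11.8 FPKM in TAC hearts and 33.0, 33.5 and 10.6 FPKM in sham hearts. Both share over 10% of their 75-base words with transcripts of another gene, Gm6997 for Mrpl22 and Gm5776 for Mrps33.

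TAC hearts were compared with sham hearts to see how the members stood after the operation. None of the 74 tested members passed an adjusted p of 0.05 (limma on log2(FPKM + 1), Benjamini-Hochberg over 11380 genes), and neither did any other gene, so 0 of 11380 genes (0%) were called. The smallest adjusted p of a member was 0.903. The median log2 difference, TAC minus sham, was -0.05 over the members and 0.00 over all genes tested. It was above 0 for 29 members and below 0 for 45. At an unadjusted p under 0.05 stood 0 members higher in TAC, against 2.85% of all genes, and 1 member lower, against 2.58% of all genes. TAC and sham hearts did not overlap in 0 members higher in TAC, against 5.22% of all genes, and in 1 member lower, against 4.62% of all genes. These counts do not exceed the shares over all genes. Within the 4 libraries with mostly even fragment numbers the members' median was -0.01, and within the other 5, with 1 TAC and 1 sham heart, -0.06.

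The 95% interval of the difference stayed within 2-fold in either direction (-1 to 1 on the log2 scale) for 68 of the 74 members, or 91.9%. The share was 64.9% over all genes tested and 77.4% over the 4541 genes in the level band given above, whose median level was lower. A TAC difference of more than 2-fold is thus outside the interval for most members, while smaller ones may lie within it. The values are scaled to the library total, so a change common to all genes is not seen. They come from a whole heart, in which fewer cells of a type and less RNA per cell cannot be told apart.

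The member without overlap was Mrps11, a small-subunit protein whose bacterial homologue sits on the platform beside the exit of the mRNA. It had 29.1, 32.4 and 33.8 FPKM in TAC hearts and 57.8, 41.8 and 44.8 FPKM in sham hearts. The difference was -0.57 ± 0.25 (log2, SE) with an adjusted p of 0.903, so it did not pass. Mrps12 is the homologue of bacterial S12, the protein at the decoding site that sets the accuracy of codon reading. It had 55.6, 45.0 and 66.2 FPKM in TAC hearts and 103.7, 86.8 and 59.0 FPKM in sham hearts, and the groups overlapped through sham replicate 3. Its difference was -0.55 ± 0.26 (log2, SE; adjusted p = 0.935). Next in order of p among members with lower TAC means was Mrpl49, a mitochondria-specific large-subunit protein. It had 4.63, 10.1 and 11.8 FPKM in TAC hearts and 13.3, 14.4 and 11.3 FPKM in sham hearts (-0.59 ± 0.31). TAC replicate 1 was far below the other TAC hearts. Mrpl37, also specific to mitochondria, had 70.4, 39.5 and 46.5 FPKM in TAC hearts and 74.6, 73.7 and 55.5 FPKM in sham hearts (-0.40 ± 0.25), again with overlap.

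The 4 members of smallest p with a higher mean in TAC hearts were all in the large subunit, as are 49 of the 74 tested members, and none passed. Mrpl1 forms the stalk that handles deacylated tRNA leaving the ribosome in bacteria. It had 6.72, 9.34 and 13.5 FPKM in TAC hearts and 9.13, 6.25 and 6.20 FPKM in sham hearts (0.38 ± 0.28 on the log2 scale). Mrpl20 had 86.2, 79.8 and 65.3 FPKM in TAC hearts and 69.9, 55.1 and 66.6 FPKM in sham hearts (0.26 ± 0.21). For Mrpl32, whose cleavage by the m-AAA protease precedes ribosome assembly in yeast and mice, the values were 18.4, 32.1 and 26.0 FPKM in TAC hearts and 18.5, 22.0 and 18.7 FPKM in sham hearts (0.32 ± 0.27). Mrpl24 completed the 4, with 32.9, 25.3 and 26.5 FPKM in TAC hearts and 20.9, 22.1 and 26.4 FPKM in sham hearts (0.27 ± 0.25). As 26.3% of its annotated exon length overlaps Rrnad1, its reads may be shared with that gene. In each of these 4 genes at least 1 sham heart reached into the TAC range.

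LD hearts were compared with TAC hearts to see how the members stood with decoction. Again no member and no other gene passed (0% of 11380 genes), and the smallest adjusted p of a member was 0.54. The members' median difference, LD minus TAC, was 0.14 on the log2 scale, while all genes tested had a median of -0.10. It was above 0 for 46 members and below 0 for 28. At an unadjusted p under 0.05 stood 1 member higher in LD, against 2.51% of all genes, and 0 lower, against 6.31% of all genes. LD and TAC hearts did not overlap in 5 members that were higher in LD, with 3.73% of all genes in that direction, and in 2 members that were lower in LD, with 8.14% of all genes. The interval stayed within 2-fold for 59 members (79.7%), against 55.2% of all genes tested and 66.1% of genes in the same level band.

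**Figure D2:**
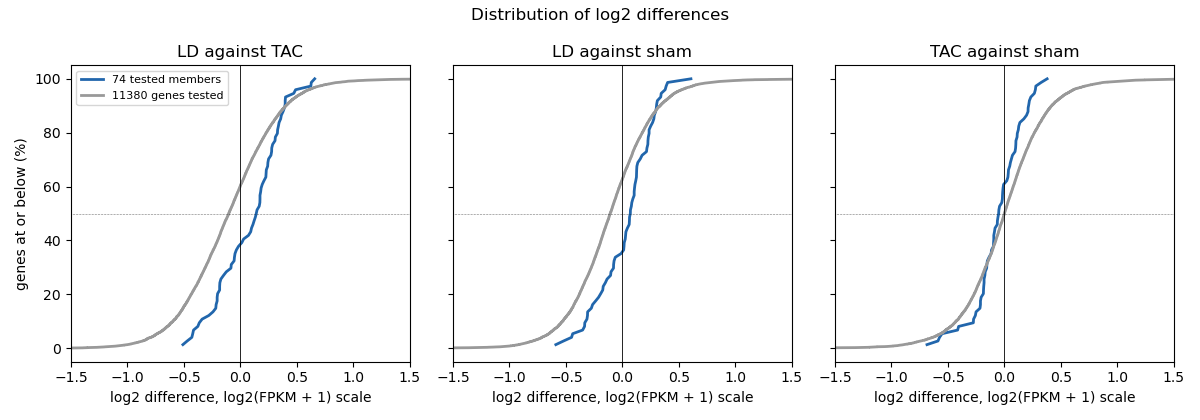
Share of genes (%) at or below each log2 difference for the 74 tested members and for all 11380 genes tested, in LD against TAC, LD against sham and TAC against sham. The members' curve crosses 50% at 0.14, 0.07 and -0.05, the curve of all genes at -0.10, -0.11 and 0.00.

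The positive median was largely lost without 2 libraries. With LD replicate 3 left out it was 0.05, with TAC replicate 3 left out 0.04, and with both left out -0.03, beside -0.01 over all genes. Where each library was scaled by the median of ratios, it was 0.28 (0.01 over all genes), and after rescaling to equal FPKM sums 0.04 (-0.19 over all genes). The members' median minus that of all genes was 0.27 and 0.23 under these scalings and 0.25 without them, so the value itself depended on the scaling more than its distance from all genes did. A fit with a term for the libraries with mostly even fragment numbers, added after the data were seen, gave 0.08, and the 5 other libraries alone gave 0.09. No LD library had mostly even numbers, so LD against TAC could not be formed within the 4 that did.

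By heart, the members' means spread widely within each group. Against the sham mean, the members' mean of log2(FPKM + 1) was -0.15, 0.08 and 0.16 in LD hearts, -0.12, 0.10 and -0.14 in TAC hearts and 0.08, 0.04 and -0.13 in sham hearts. LD replicate 3 was the highest of the 9 and LD replicate 1 the lowest, so the LD group covered the whole range. Over all genes tested LD replicate 3 was at -0.24 and TAC replicate 3 at 0.05, so in both libraries the members stood on the other side of the sham mean from the average gene. The 80 cytosolic ribosomal proteins were at -0.08, 0.39 and 0.24 in LD hearts, 0.15, 0.34 and -0.54 in TAC hearts and 0.05, 0.01 and -0.07 in sham hearts. TAC replicate 3 was lowest for them and for the 36 nuclear genes of complex I (-0.32). Cardiomyocyte markers moved with these libraries: their mean was 0.45 above the sham mean in LD replicate 3 and -0.22 in TAC replicate 3, against -0.03 to 0.09 in the other LD and TAC hearts. Their part in the members' values was not tested. Base composition moved with TAC replicate 3: across the 74 members, its deviation had a Pearson correlation of -0.396 with the GC content of the longest transcript, and across all genes it was -0.378. For LD replicate 3 the correlations were 0.154 and 0.193, within the range of the other hearts. These points share the library, and the correlations are descriptions.

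**Figure D3:**
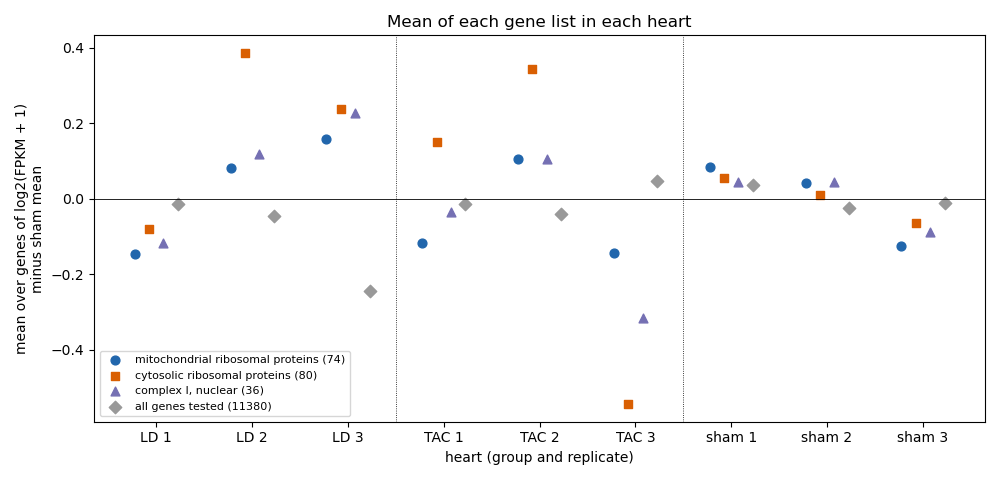
Mean over genes of log2(FPKM + 1) minus the mean of the 3 sham hearts, for each heart and 4 gene lists. Mitochondrial ribosomal proteins stay between -0.15 and 0.16, whereas cytosolic ribosomal proteins reach 0.39 in LD replicate 2 and -0.54 in TAC replicate 3.

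Of the 5 members that were higher in every LD heart than in every TAC heart, 4 belong to the small subunit. This subunit holds 24 of the 74 tested members, and the split was not tested. Mrps12 had 72.6, 80.7 and 105.3 FPKM in LD hearts and 55.6, 45.0 and 66.2 FPKM in TAC hearts, a difference of 0.62 ± 0.26 (log2, SE; adjusted p = 0.54). Mrps11 had 34.7, 42.3 and 59.4 FPKM in LD hearts and 29.1, 32.4 and 33.8 FPKM in TAC hearts (0.47 ± 0.25; adjusted p = 0.583). These are the same TAC hearts that gave the low TAC values of Mrps11 and Mrps12 above, so the second difference is not independent of the first. Against sham hearts, LD hearts differed by 0.07 ± 0.26 for Mrps12 and by -0.10 ± 0.25 for Mrps11. Mrps28, a small-subunit protein, had 86.9, 142.6 and 90.8 FPKM in LD hearts and 84.9, 82.4 and 43.0 FPKM in TAC hearts (0.63 ± 0.29). The gap between the groups was narrow, and LD replicate 2 and TAC replicate 3 made most of the difference. The large-subunit member was Mrpl9, the homologue of the bacterial protein that reaches out from the base of the tRNA exit stalk. It had 30.9, 38.8 and 41.7 FPKM in LD hearts and 24.6, 29.7 and 24.0 FPKM in TAC hearts (0.49 ± 0.25; adjusted p = 0.579). The other was Mrps34, given above (0.22 ± 0.20).

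**Figure D4:**
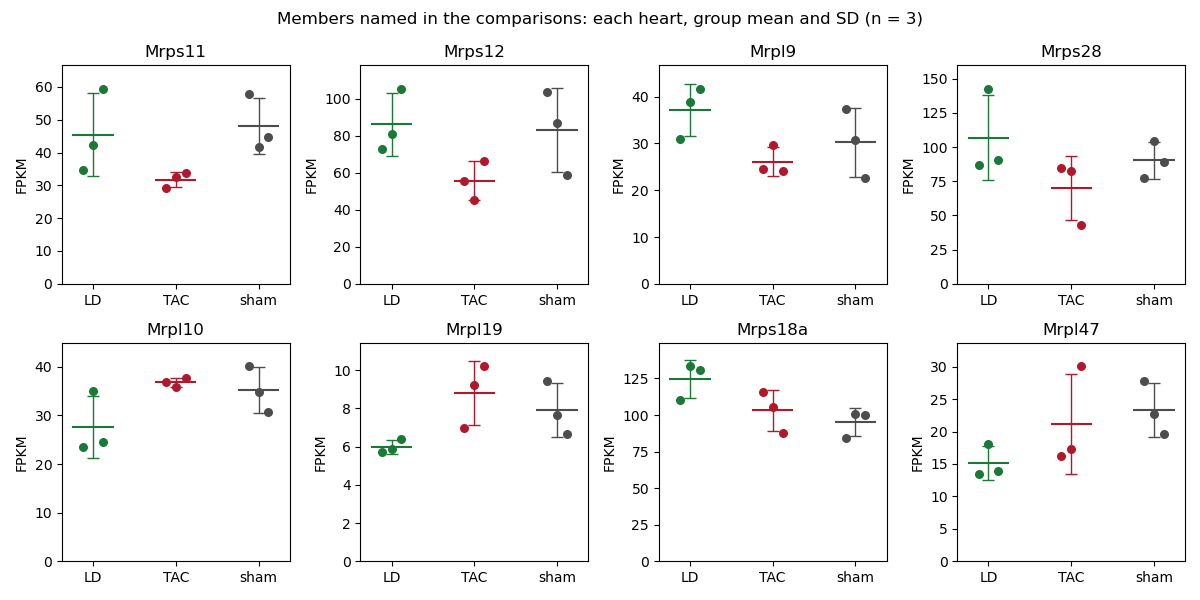
FPKM of 8 members in each heart, in the order LD, TAC and sham. Points are hearts, horizontal lines the group means and bars the SD (n = 3 each). In Mrps11 and Mrps12 the 3 TAC hearts lie below the 3 LD hearts, and in Mrpl10 and Mrpl19 above them. None of these differences passed an adjusted p of 0.05.

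In the other direction, both members without overlap belong to the large subunit, as do 49 of the 74 tested members. Mrpl10 anchors the stalk on which Mrpl12 sits. It had 23.4, 34.9 and 24.6 FPKM in LD hearts and 36.9, 35.8 and 37.7 FPKM in TAC hearts (-0.42 ± 0.23 on the log2 scale; adjusted p = 0.594). LD replicate 2 came within 1 FPKM of the lowest TAC heart. Mrpl19 had 5.72, 5.88 and 6.42 FPKM in LD hearts, 6.95, 9.25 and 10.2 FPKM in TAC hearts and 9.42, 7.63 and 6.64 FPKM in sham hearts. Its LD hearts were below all other hearts, with differences of -0.47 ± 0.25 from TAC and -0.34 ± 0.25 from sham. The annotation places 36.0% of its exon length within Gcfc2. The partner of Mrpl10 in the stalk, Mrpl12, did not follow it: its difference, LD minus TAC, was 0.34 ± 0.26, and the 2 differences were not tested against each other. Mrpl11, which forms the base of the stalk, had 22.1, 42.9 and 47.0 FPKM in LD hearts, 31.1, 32.4 and 23.1 FPKM in TAC hearts and 25.5, 28.2 and 26.4 FPKM in sham hearts, with LD replicate 1 below all sham hearts and the other LD hearts above all of them.

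LD hearts were also set against sham hearts, a comparison that shares libraries with both others. No gene passed (0% of 11380), with a smallest adjusted p of 0.875 among members. The median difference, LD minus sham, was 0.07 over the members and -0.11 over all genes tested, with 48 members above and 26 below 0. No member had an unadjusted p under 0.05, against 1.52% of all genes higher and 3.59% lower in LD. The interval stayed within 2-fold for 63 members (85.1%), against 61.5% of all genes tested and 72.7% of genes in the level band. Groups did not overlap in 3 members higher in LD, with 4.47% of all genes in that direction, and in 3 members lower in LD, with 8.76% of all genes. The higher ones were Mrpl20, Mrps18a and Mrps34. Mrps18a had 110.0, 133.4 and 130.9 FPKM in LD hearts, 116.1, 105.5 and 87.9 FPKM in TAC hearts and 84.1, 101.0 and 100.4 FPKM in sham hearts (LD minus sham 0.39 ± 0.21). Mrpl20 had 81.1, 72.2 and 78.8 FPKM in LD hearts, all above its 3 sham values. The lower ones were Mrpl19, Mrpl37 and Mrpl47. Mrpl47, the homologue of a bacterial protein at the mouth of the exit tunnel, had 13.4, 18.1 and 13.9 FPKM in LD hearts, 16.2, 17.3 and 30.1 FPKM in TAC hearts and 27.7, 22.7 and 19.6 FPKM in sham hearts (LD minus sham -0.59 ± 0.28). Its 3 LD hearts lay below all sham hearts. As 24.2% of its annotated exon length overlaps Actl6a or Ndufb5, its reads may be shared with them. For Mrpl37 the LD values were 54.2, 54.8 and 52.9 FPKM. The F test over the 3 groups gave 0 members at an unadjusted p under 0.05, against 6.76% of all genes.

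By subunit, the medians of the LD minus TAC differences were 0.11 over 49 tested large-subunit members and 0.19 over 24 tested small-subunit members. In TAC against sham they were -0.05 and -0.08, and in LD against sham 0.08 and 0.07. Members with a bacterial homologue had a median of 0.17 and mitochondria-specific members of 0.11 in LD against TAC. None of these splits was tested. The 43 tested members with no annotated exon overlap gave 0.17 in LD against TAC and -0.06 in TAC against sham, close to the values over all 74.

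**Figure D5:**
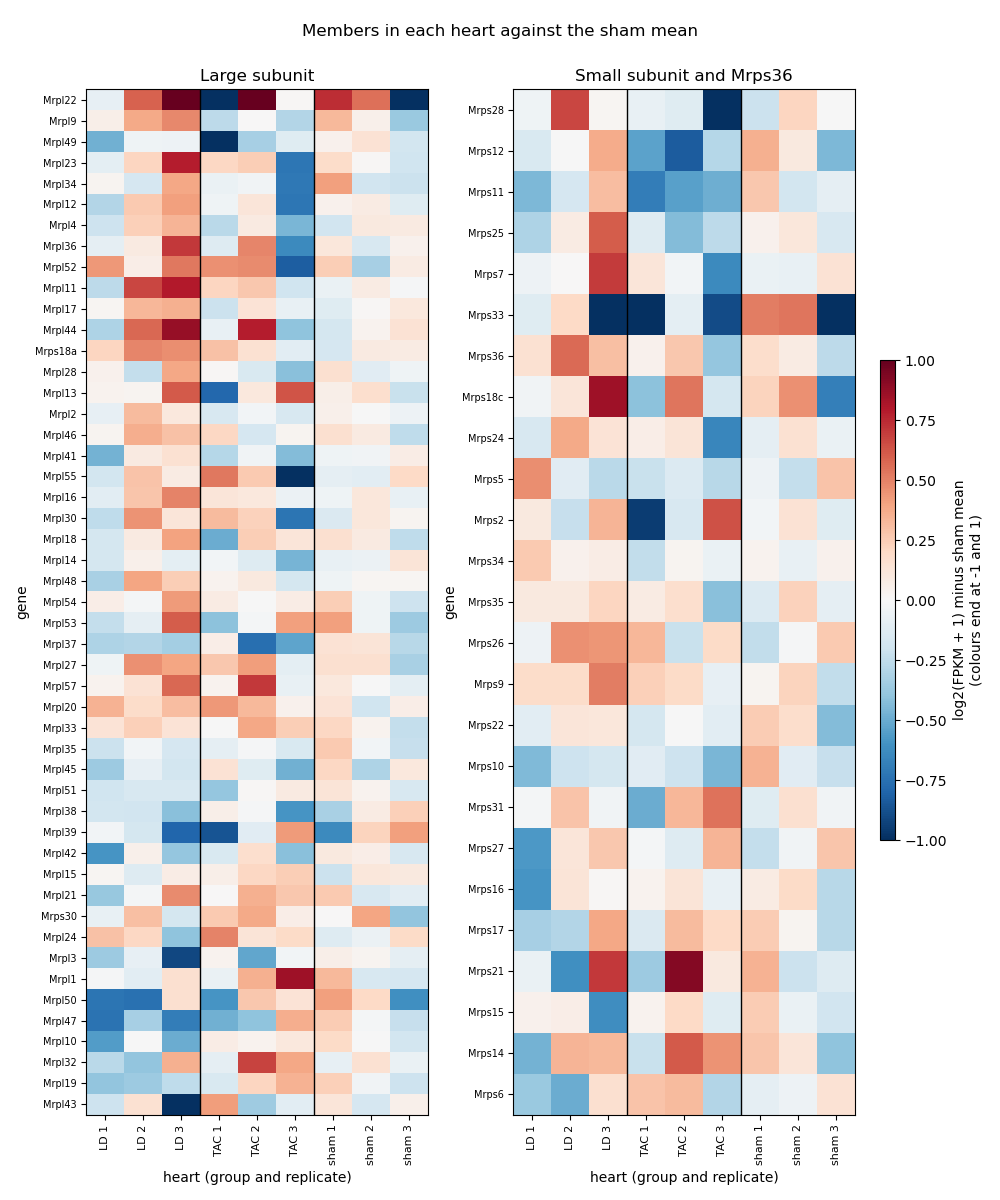
log2(FPKM + 1) of each tested member in each heart minus the mean of its 3 sham hearts, ordered within each subunit by the LD minus TAC difference. Columns are hearts in the order LD, TAC and sham, red is above and blue below the sham mean, and colours end at -1 and 1. Replicates of 1 group differ in many genes by as much as the groups do, and Mrpl22 and Mrps33 show the widest swings.

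Members at other functional sites showed overlapping groups in all 3 comparisons. On the small subunit, Mrps2 had 6.07, 4.64 and 7.37 FPKM in LD hearts, 2.43, 4.92 and 9.26 FPKM in TAC hearts and 5.50, 6.30 and 5.09 FPKM in sham hearts. Mrps5 is the gene whose knockdown lengthens life in Caenorhabditis elegans. It had 37.6, 24.9 and 22.2 FPKM in LD hearts, 22.9, 24.4 and 22.1 FPKM in TAC hearts and 26.0, 22.7 and 33.1 FPKM in sham hearts. Mrps7 binds the small-subunit rRNA and starts assembly of the head in bacteria. Its values were 131.7, 137.0 and 222.0 FPKM in LD hearts, 148.9, 134.3 and 87.3 FPKM in TAC hearts and 130.1, 129.6 and 151.0 FPKM in sham hearts, with LD replicate 3 highest and TAC replicate 3 lowest. Mrps9, whose bacterial homologue sits in the head, had 85.4, 85.5 and 107.7 FPKM in LD hearts, 88.7, 85.9 and 70.8 FPKM in TAC hearts and 76.4, 87.8 and 63.3 FPKM in sham hearts. Mrps16 and Mrps22, whose human counterparts are linked to inherited respiratory chain deficiency, averaged 113.0 and 10.3 FPKM. Mrps22 ran between 9.52 and 11.3 FPKM in LD hearts, 9.00 and 10.3 FPKM in TAC hearts and 7.40 and 12.5 FPKM in sham hearts. Mrps16 ran between 75.9 and 125.4 FPKM in LD hearts, 109.2 and 125.6 FPKM in TAC hearts and 94.7 and 131.1 FPKM in sham hearts. Mrps14 and Mrps6, both with bacterial homologues, had differences, LD minus TAC, of -0.22 ± 0.31 and -0.34 ± 0.25.

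On the large subunit, Mrpl3 lies near the peptidyl transferase centre. It had 33.2, 40.5 and 22.4 FPKM in LD hearts, 44.0, 29.6 and 42.0 FPKM in TAC hearts and 44.7, 43.8 and 40.3 FPKM in sham hearts, with LD replicate 3 the lowest of the 9. The LD minus sham difference was -0.45 ± 0.26, and LD replicate 2 overlapped the sham hearts. Mrpl44, a mitochondria-specific protein with a ribonuclease fold, had 15.6, 29.5 and 36.5 FPKM in LD hearts, 18.5, 34.4 and 14.5 FPKM in TAC hearts and 17.1, 20.0 and 21.7 FPKM in sham hearts. LD and TAC hearts each spread more widely than sham hearts. Mrpl45 ties the exit tunnel to the inner membrane. It had 32.1, 39.4 and 36.5 FPKM in LD hearts, 46.1, 38.2 and 29.6 FPKM in TAC hearts and 48.3, 33.4 and 44.8 FPKM in sham hearts. Mrpl43 had a single low heart, LD replicate 3, with 12.5 FPKM, while the other 8 hearts ran between 29.0 and 50.3 FPKM. That gave it the lowest LD minus TAC difference of the members, -0.51 ± 0.36. Of its annotated exon length, 33.4% overlaps Twnk. Mrps30 and Mrps36 averaged 23.8 and 105.8 FPKM, with LD minus TAC differences of -0.22 ± 0.26 and 0.36 ± 0.24.

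Correlations between members from heart to heart were low in the median. The Pearson correlation between pairs of members over the 9 hearts had a median of 0.161, and 63.0% of pairs were above 0. Group means were not removed, so differences between groups enter these correlations. The cytosolic ribosomal proteins had a higher median of 0.516 and the complex I genes of 0.207. Lower medians were found for the mitochondrial aminoacyl-tRNA synthetases (0.038) and translation factors (-0.014). A value over all genes was not computed. Pairs share their libraries, and these values are descriptions.

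The start sites of members were looked at for shared sequence, as the nuclear genes of mitochondrial proteins are known for promoters that bind ETS factors such as GABP, NRF1 and YY1. RefSeq windows of 250 bases before to 50 after the start (GRCm38.p6) were found for 68 of the 77 members, in 74 windows. On both strands, the ETS core CCGGAAG was in 33.8% of member windows, in 16.9% of 11177 windows of tested genes and in 8.9% of all 32851 windows. The NRF1 half-site core TGCGCA was in 28.4%, 13.6% and 7.8%, and the YY1 core AAGATGG in 17.6%, 7.2% and 6.3%. At least 1 of the 3 was in 59.5% of member windows, in 32.6% of windows of tested genes and in 20.4% of all windows. The ERR half-site AAGGTCA was in 5.4% of member windows (4 of 74), 3.2% of windows of tested genes and 4.7% of all windows. Of the other elements, the E-box CACGTG was in 9.5% of member windows and 9.9% of windows of tested genes, the CCAAT box in 40.5% and 37.0%, and TATAAA in 6.8% and 7.2%. The GC box GGGCGG was in 52.7% and 62.6%. GC content was similar, with a median of 58.5% in member windows and 60.7% in windows of tested genes. Letters of 1 motif could overlap those of another. A match is a run of letters and was not tested as a binding site.

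Windows of 160 bases (130 before and 30 after the start) are printed for members whose values are given above, with the ETS, NRF1 and YY1 cores in capitals. Mrps18a, at chr17:46110874-46111033 on the plus strand of GRCm38.p6, has all 3 cores. Mrps12, at chr7:28741792-28741951 on the minus strand, has an ETS core just past its start. Mrpl32, at chr13:14613008-14613167 on the minus strand, has 3 NRF1 half-sites within the stretch shown, of which 2 abut. Mrpl3, at chr9:105053138-105053297 on the plus strand, has an ETS core before its start. Mrps11, at chr7:78783001-78783160 on the plus strand, has a YY1 core read on the other strand. Mrpl46, at chr7:78783060-78783219 on the minus strand, starts 42 bases away from Mrps11 and has none of the 3 cores, and the full windows of this pair share 141 bases.
Mrps18a: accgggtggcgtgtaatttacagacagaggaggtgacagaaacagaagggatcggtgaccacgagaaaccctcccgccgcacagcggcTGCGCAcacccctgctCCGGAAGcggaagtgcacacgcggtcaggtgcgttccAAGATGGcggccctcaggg
Mrps12: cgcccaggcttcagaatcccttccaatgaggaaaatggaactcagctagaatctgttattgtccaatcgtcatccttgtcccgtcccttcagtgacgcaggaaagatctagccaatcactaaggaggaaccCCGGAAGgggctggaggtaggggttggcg
Mrpl32: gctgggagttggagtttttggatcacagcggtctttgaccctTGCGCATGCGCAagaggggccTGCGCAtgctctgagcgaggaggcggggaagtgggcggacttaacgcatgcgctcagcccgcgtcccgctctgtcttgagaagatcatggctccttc
Mrpl3: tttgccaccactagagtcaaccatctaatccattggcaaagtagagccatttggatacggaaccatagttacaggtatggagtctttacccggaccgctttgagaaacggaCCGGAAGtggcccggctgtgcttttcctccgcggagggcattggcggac
Mrps11: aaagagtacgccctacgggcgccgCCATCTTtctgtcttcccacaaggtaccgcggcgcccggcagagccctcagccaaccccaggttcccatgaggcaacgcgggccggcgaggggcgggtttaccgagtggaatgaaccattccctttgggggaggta
Mrpl46: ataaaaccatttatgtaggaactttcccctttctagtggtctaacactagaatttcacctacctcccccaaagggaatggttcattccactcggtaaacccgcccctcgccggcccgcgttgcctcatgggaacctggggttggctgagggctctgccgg

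Mrpl46 and Mrps11 thus start within 42 bases of each other in opposite directions, and their values are set side by side. Mrpl46, a large-subunit protein, had 29.0, 37.0 and 35.2 FPKM in LD hearts, 33.1, 25.2 and 29.1 FPKM in TAC hearts and 32.0, 30.4 and 23.8 FPKM in sham hearts. Its TAC minus sham difference was 0.02 ± 0.23, beside -0.57 ± 0.25 for Mrps11, the member of smallest p in that comparison. The LD minus TAC differences were both above 0, at 0.21 ± 0.23 for Mrpl46 and 0.47 ± 0.25 for Mrps11. The differences between the genes were not tested. In Mrps18a and Mrps12, both with an ETS core, the TAC minus sham differences were 0.11 ± 0.21 and -0.55 ± 0.26.

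Paired, opposite starts were common. For 19 of the 77 members (24.7%) the start of another protein-coding gene on the opposite strand lay within 1000 bases upstream, against 10.9% of tested and 7.2% of all protein-coding genes in GENCODE M21. Starts that overlapped by more than 100 bases were not counted. Mrpl46 and Mrps11 are outside the 19 for that reason, since their starts in GENCODE overlap beyond that limit, while the RefSeq starts given above do not overlap. All but 1 of the 19 pairs were at most 207 bases apart. Partners included Ndufs6, a complex I subunit, beside Mrpl36, Fau, a cytosolic ribosomal protein gene, beside Mrpl49, Psma2, a proteasome subunit, beside Mrpl32, and Sars2, the mitochondrial seryl-tRNA synthetase, beside Mrps12. Levels within a pair could differ widely. Mrpl36 averaged 40.8 FPKM and Ndufs6 1728 FPKM, with starts that overlap by 29 bases. Mrpl49 averaged 11.1 FPKM and Fau 979.4 FPKM, 59 bases apart. Sars2 had 11.1, 8.50 and 2.57 FPKM in LD hearts, 4.85, 7.78 and 6.10 FPKM in TAC hearts and 11.4, 7.73 and 6.24 FPKM in sham hearts. Its LD minus TAC difference was 0.06 ± 0.40, beside 0.62 ± 0.26 for Mrps12, and the groups of Sars2 overlapped. The TAC minus sham differences were both below 0, at -0.37 ± 0.40 for Sars2 and -0.55 ± 0.26 for Mrps12. The differences between these genes were not tested. Mrpl40 shares its start region with Hira and Mrps18b with Ppp1r10. Hira averaged 0.098 FPKM and Ppp1r10 1.45 FPKM, so both partners of these low members were low as well. Low partners also stood beside members at higher levels: Ska3 averaged 0.115 FPKM beside Mrpl57 with 35.8 FPKM, and Helq 1.44 FPKM beside Mrps18c with 100.7 FPKM.

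Other genes of mitochondrial translation also gave no call in any comparison. Of 6 measured ribosome subunits with other names, 1 was above and 5 were below 0 in TAC against sham, and 5 were above and 1 below in LD against TAC (medians -0.06 and 0.21). Among them Ict1 had 67.8, 115.4 and 99.3 FPKM in LD hearts, 89.7, 109.2 and 58.7 FPKM in TAC hearts and 73.6, 71.8 and 81.1 FPKM in sham hearts. Gadd45gip1, a large-subunit protein at the tunnel exit, had 86.2, 92.4 and 122.7 FPKM in LD hearts and 85.7, 77.8 and 73.1 FPKM in TAC hearts (0.33 ± 0.22), without overlap. Dap3, a GTP-binding protein of the small subunit, had a TAC minus sham difference of -0.12 ± 0.25. For Aurkaip1, also in the small subunit, the LD minus TAC difference was 0.28 ± 0.24.

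The 26 tested assembly and rRNA factors had medians of -0.09 in TAC against sham and -0.04 in LD against TAC. Among them the rRNA ribose methyltransferase Mrm2 stood out, with 12.0, 10.7 and 11.9 FPKM in LD hearts, 7.50, 5.40 and 4.48 FPKM in TAC hearts and 9.33, 7.92 and 8.01 FPKM in sham hearts. The TAC hearts lay below all others and the LD hearts above all others. The LD minus TAC difference was 0.91 ± 0.25 and the TAC minus sham difference -0.49 ± 0.25, and neither passed (adjusted p = 0.495 and 0.949). Fastkd2, an RNA-binding protein needed for the large-subunit rRNA, had 6.42, 6.95 and 3.03 FPKM in LD hearts, 7.14, 8.89 and 21.9 FPKM in TAC hearts and 8.71, 9.47 and 5.19 FPKM in sham hearts. Its high value came from TAC replicate 3 alone. Tfb1m, which methylates the small-subunit rRNA, ran between 0.45 and 1.88 FPKM in TAC hearts and between 1.74 and 2.60 FPKM in sham hearts (-0.65 ± 0.33).

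The 17 tested translation factors had medians of -0.10 in TAC against sham and 0.00 in LD against TAC. Gfm2, which recycles ribosomes, had 4.81, 4.31 and 5.29 FPKM in TAC hearts and 5.68, 7.42 and 8.21 FPKM in sham hearts (-0.47 ± 0.25). For Mtif3, an initiation factor, the values were 1.87, 2.22 and 1.82 FPKM in TAC hearts and 4.03, 2.97 and 3.52 FPKM in sham hearts (-0.60 ± 0.32). In both genes every TAC heart lay below every sham heart, and neither passed (adjusted p = 0.958 each). Mtfmt, which formylates the initiator tRNA, had 6.26, 5.28 and 2.35 FPKM in LD hearts and 9.73, 8.30 and 7.05 FPKM in TAC hearts (-0.80 ± 0.33). Mtif2 differed by -0.49 ± 0.26 between LD and TAC hearts. Among 20 aminoacyl-tRNA synthetases (medians -0.06 and 0.09), Mars2 had 1.64, 0.63 and 0.60 FPKM in LD hearts, 2.81, 3.08 and 2.56 FPKM in TAC hearts and 1.99, 0.81 and 1.77 FPKM in sham hearts. Every TAC heart was above every other heart (TAC minus sham 0.63 ± 0.32; adjusted p = 0.537 for LD against TAC). Cars2 went the other way, with 38.2, 36.1 and 43.1 FPKM in LD hearts and 35.9, 16.1 and 23.0 FPKM in TAC hearts (0.69 ± 0.27).

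Of 19 tested genes of mtDNA transcription and maintenance, 10 were below 0 in TAC against sham and 10 in LD against TAC (medians -0.01 and -0.31). Polrmt, the mitochondrial RNA polymerase, had 7.84, 4.73 and 7.91 FPKM in TAC hearts and 10.8, 9.44 and 11.8 FPKM in sham hearts (-0.60 ± 0.26), without overlap. Esrra, a nuclear receptor that controls many mitochondrial genes, had 85.3, 80.6 and 105.5 FPKM in TAC hearts and 158.9, 113.7 and 143.1 FPKM in sham hearts (-0.61 ± 0.24). Gabpa encodes the ETS subunit of GABP. It had 8.68, 7.95 and 4.72 FPKM in LD hearts and 10.8, 14.0 and 11.9 FPKM in TAC hearts (-0.73 ± 0.26), and Mterf2 differed by -0.73 ± 0.31 between LD and TAC hearts. None of these passed. The 15 tested genes of stress response and proteostasis had medians of -0.11 and -0.06. Gdf15, a secreted stress signal, had 1.92, 1.77 and 2.39 FPKM in LD hearts, 3.64, 6.31 and 3.57 FPKM in TAC hearts and 3.30, 3.13 and 0.95 FPKM in sham hearts (LD minus TAC -0.83 ± 0.34). For the chaperone Hspd1 the TAC minus sham difference was -0.54 ± 0.32, and for the chaperone Trap1 the LD minus TAC difference was 0.72 ± 0.31.

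Markers of other cell types were summed in the same hearts. Fibroblast markers (10 of 10 above 0 in every library) summed to 0.214% to 0.296% of the FPKM sum in LD hearts, 0.285% to 0.435% in TAC hearts and 0.19% to 0.221% in sham hearts. Erythroid markers (5 of 5) summed to 0.202% to 0.39% in LD hearts, 0.475% to 1.94% in TAC hearts and 0.097% to 0.631% in sham hearts. Macrophage markers (10 of 10) summed to 0.055% to 0.074% in LD hearts, 0.06% to 0.097% in TAC hearts and 0.054% to 0.084% in sham hearts. Endothelial markers summed to 0.562% to 0.859%, 0.674% to 0.793% and 0.639% to 0.875% in these groups. For smooth muscle and pericyte markers the ranges were 0.069% to 0.107%, 0.087% to 0.104% and 0.068% to 0.08%. Brown fat markers were at most 0.007% in any heart. Macrophage, endothelial and brown fat ranges overlapped between all groups. The part of these cell types in the members' differences was not tested.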

How the data were processed

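RNA was taken from whole hearts of 9 mice described as biological repeats, mRNA was selected on poly-T beads, and no step that marks the strand is named, per the labels' protocols. Per the submitters' processing notes, the tools were CASAVA 1.8, fastp 0.20.0, HISAT2 2.1.0, Cufflinks 2.2.1, HTSeq 0.7.2 and DESeq on GRCm38. The notes used here do not tie tools to values or name a gene annotation. The values deposited by the authors are FPKM per gene symbol.

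In the deposited FPKM values, the steps of each gene are multiples of what 1 fragment is worth. Whole fragments resulted, within 0.001, for each of the 16262 genes above 0, and the library totals (7.43 to 18.1 M fragments) and gene lengths were taken from these steps. The test covered the 11380 genes that reached 1 FPKM in 3 or more libraries, as log2(FPKM + 1), with limma 3.58.1 in R 4.3.3. The fit had 1 mean per group for all 3 groups, an empirical Bayes trend, 6 residual degrees of freedom and two-sided moderated tests with Benjamini-Hochberg adjustment over all genes tested. A log2 difference on this scale understates the change of low genes. The fit was also run on simulated data with independent noise for each value. That simulation held none of the shifts between libraries described above, so it cannot show how the fit behaves with them. Errors are standard errors of the log2 difference unless given as SD.

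The members and gene lists were chosen with earlier results of these data known, so lists were described and not tested. Named were a fixed set of members, in each comparison the 4 members of smallest p in each direction, the 4 highest and 4 lowest members, and, in each pathway list, the 2 genes of smallest p in TAC against sham and in LD against TAC. Beyond that rule, members whose groups did not overlap, Mrps33, Mrpl46 and partners at shared starts were named after their values were seen. Exon overlaps and neighbours came from GENCODE M21, and promoter windows from RefSeq (GRCm38.p6).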

Additional observations from a re-analysis of the deposited data

How the results depend on the processing

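No member passed an adjusted p of 0.05 in any of 24 alternatives (pseudocount, filter, scaling, fit or libraries used), and the smallest adjusted p of a member there was 0.101. Over all genes tested, the count called in TAC against sham was 0 with the settings of the report, 2 with an FPKM filter of 5, 9 with array weights, 4 with voom on recovered fragments, 6 with only the 4 libraries with mostly even numbers, and 0 to 13 with 1 library left out. In LD against sham it was 0 with the settings of the report, 3, 135 and 3 under the first 3 of these, 10 with only the 2 groups compared, and 0 to 8 with 1 library left out. The members' median in LD against TAC was 0.04 to 0.21 with 1 library left out and -0.03 with LD replicate 3 and TAC replicate 3 both left out. In TAC against sham it ran between -0.15 when TAC replicate 2 was left out and 0.03 when TAC replicate 3 was, and in LD against sham between -0.01 and 0.17. Of 2587 values of named members under alternatives, 106 moved by more than 1 SE and 0 were newly called. Replicate numbers did not pair the hearts (correlations of same-numbered hearts from -0.236 to 0.146), and a fit with the replicate number as a block called 0 members and 0 genes. The cause of these shifts was not tested.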
